A study of Mus musculus with 10 samples.

Results

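The tubulins and tubulin-modifying ligases were taken as every gene row whose symbol begins with Tuba, Tubb, Tubd, Tube, Tubg or Ttll, which gave 39 of 23420 gene rows. The rule also brought in 5 gamma-tubulin complex proteins (Tubgcp2 to Tubgcp6), which bind gamma-tubulin but are not tubulins, 1 pseudogene row (Tubb2a-ps2), and Ttll12, a relative of the ligases whose activity on tubulin is not established. PolyA RNA of spermatogenic cells from testes of mice at postnatal day 18, of mixed background, was sequenced in 10 libraries. These libraries also held transcripts of somatic marker genes, as given below. The 5 libraries labelled Ino80cKO came from testes in which Ino80, an ATP-dependent chromatin remodeller, was deleted with Stra8-Cre, a recombinase driven in male germ cells by the Stra8 promoter, and the 5 labelled Ino80WT came from testes without the deletion. The labels do not say which exons were removed, whether Ino80WT mice carried Cre or floxed alleles, or whether each library came from its own animal. The p-values therefore speak only of the spread among libraries, which may be technical.

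Microtubules are polymers of alpha- and beta-tubulin pairs, and gamma-tubulin with its complex proteins starts their growth. Delta- and epsilon-tubulin serve centrioles. The tails of alpha- and beta-tubulin carry glutamate residues to which ligases of the TTLL family add chains of glutamate or glycine, marks known above all from cilia and from the axoneme of the sperm tail. Male germ cells use microtubules for the meiotic spindle, for the manchette that shapes the spermatid head, and for the flagellum. Juvenile mouse testes have germ cells that reach pachytene of meiotic prophase at about this age, when few spermatids are present.

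Counts assigned to genes ran from 16750609 to 23700094 per library, so that 3 counts correspond to 0.117 to 0.189 CPM (counts per 1000000 counts, scaled by TMM factors), a limit for counting error only. Ino80 itself was at 94.5 to 97.5 CPM in Ino80cKO and 75.8 to 110.1 CPM in Ino80WT (log2 fold change 0.02 ± 0.09, adjusted p = 0.889), which, with the deleted exons not given, checks nothing about the labels. The 12 markers of pachytene spermatocytes summed to 1146 to 2043 CPM in Ino80cKO and 3298 to 5757 CPM in Ino80WT. All 12 were lower, against 27.6% of all genes tested. The 12 markers of Sertoli cells, the somatic cells of the tubule, summed to 4966 to 6729 CPM in Ino80cKO and 3391 to 5324 CPM in Ino80WT. Of these 12, 5 were higher, against 18.3% of all genes tested. Ino80WT 3 had the highest pachytene and the lowest Sertoli sum of all libraries, and Ino80cKO 3 the lowest pachytene and the highest Sertoli sum. In bulk RNA, fewer cells of a type and less RNA per cell cannot be told apart. Unless stated otherwise, log2 fold changes are Ino80cKO over Ino80WT with their SE, CPM values carry SD, n = 5 libraries per group, and adjusted p-values come from the quasi-likelihood test of edgeR with Benjamini-Hochberg adjustment over 15265 genes.

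Promoters of 6 members are shown because their transcripts lead the results that follow. Tuba3a, Tuba3b and Tubb4b had the most counts among the members that fell, Ttll13 and Ttll9 had the largest fall and the smallest adjusted p, and Tubb5 was a broadly used beta-tubulin that was higher. Each sequence runs 5′ to 3′ on the strand of its gene (RefSeq, GRCm38.p6, the sequence that mm10 also uses). It spans 250 bases before a transcript start to 50 bases after it, and capitals mark motif matches. For Tuba3a, unlike the other promoters shown, the bases just after this start were not found in GENCODE transcripts of the gene.
Tuba3a: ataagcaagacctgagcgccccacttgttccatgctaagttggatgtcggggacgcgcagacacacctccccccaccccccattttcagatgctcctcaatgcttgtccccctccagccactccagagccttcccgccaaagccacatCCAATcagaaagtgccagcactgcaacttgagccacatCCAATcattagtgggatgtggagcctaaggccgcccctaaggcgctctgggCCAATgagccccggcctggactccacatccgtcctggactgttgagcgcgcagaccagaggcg
Tuba3b: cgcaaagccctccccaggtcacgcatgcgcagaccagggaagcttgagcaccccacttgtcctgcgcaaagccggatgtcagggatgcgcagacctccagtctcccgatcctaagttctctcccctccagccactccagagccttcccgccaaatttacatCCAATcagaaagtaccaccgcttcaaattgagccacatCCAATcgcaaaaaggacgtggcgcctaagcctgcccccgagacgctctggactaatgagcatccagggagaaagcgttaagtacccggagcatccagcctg
Tubb4b: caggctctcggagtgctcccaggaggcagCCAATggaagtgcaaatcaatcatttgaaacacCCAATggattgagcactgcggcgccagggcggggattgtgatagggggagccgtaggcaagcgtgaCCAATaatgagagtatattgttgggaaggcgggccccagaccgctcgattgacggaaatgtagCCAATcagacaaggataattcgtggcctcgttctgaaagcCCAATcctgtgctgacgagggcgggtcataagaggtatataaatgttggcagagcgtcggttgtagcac
Ttll13: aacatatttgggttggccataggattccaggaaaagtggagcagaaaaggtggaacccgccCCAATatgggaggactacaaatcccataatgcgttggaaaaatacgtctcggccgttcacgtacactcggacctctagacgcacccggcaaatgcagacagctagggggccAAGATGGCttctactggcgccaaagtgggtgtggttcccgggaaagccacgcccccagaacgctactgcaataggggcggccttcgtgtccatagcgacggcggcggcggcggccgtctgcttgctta
Ttll9: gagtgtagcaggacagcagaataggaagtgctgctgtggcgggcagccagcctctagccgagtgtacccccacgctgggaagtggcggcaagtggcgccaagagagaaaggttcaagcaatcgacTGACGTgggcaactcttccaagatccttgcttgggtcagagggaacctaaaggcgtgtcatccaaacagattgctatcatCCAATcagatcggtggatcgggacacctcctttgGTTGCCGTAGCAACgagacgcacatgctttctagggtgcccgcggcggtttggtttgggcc
Tubb5: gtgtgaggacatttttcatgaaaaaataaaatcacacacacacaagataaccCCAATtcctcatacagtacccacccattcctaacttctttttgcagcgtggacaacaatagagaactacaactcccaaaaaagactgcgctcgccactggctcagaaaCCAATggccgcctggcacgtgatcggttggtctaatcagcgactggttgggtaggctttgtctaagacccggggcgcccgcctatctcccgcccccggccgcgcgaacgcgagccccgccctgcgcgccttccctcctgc
They lie at chr6:125286032-125286331 (minus strand), chr6:145615713-145616012 (plus), chr2:25224653-25224952 (minus), chr7:80246126-80246425 (plus), chr2:152962235-152962534 (plus) and chr17:35838252-35838551 (minus).

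The promoters were searched on both strands for 6 motifs. These were the CCAAT box (CCAAT), the CRE (TGACGTCA) and its short form (TGACGT, which lies within it), the MYB site (CAACTG, with T also allowed first and G also allowed in place of the inner T), the YY1 site (GCCATNTT) and the X-box consensus bound by RFX factors. All capitals in the promoters of Tuba3a, Tuba3b, Tubb4b and Tubb5 are CCAAT boxes. Tubb4b held 5 of them, a number reached by 0.271% of the 32851 promoters in the table, and Tuba3a held 3, against 3.37% of promoters with at least that many. Both Tuba3a and Tuba3b carried a pair of CCAAT boxes 38 bases apart, and both promoters were identical at 73.5% of 234 aligned positions. In Ttll13 the capitals are a CCAAT box and the YY1 site on the opposite strand (AAGATGGC). In Ttll9 they are, in order, a short CRE, a CCAAT box and an X-box that spans the transcript start used. That start lies inside the annotated gene, which begins at position 152951046 of chromosome 2. Of 32 members in the promoter table, 15 held a CCAAT box (37.4% of all promoters), 11 a MYB site (28.3%), 4 a short CRE (7.51%), 1 a full CRE (1.79%), 2 a YY1 site (6.05%) and 4 an X-box (1.53%). The X-box genes were Ttll9, which fell, Ttll10 and Tubgcp3, which were not called, and Ttll8, which was not tested. A match describes letters in a window and shows no binding.

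Transcripts of the testis tubulins and of most glutamate ligases were lower in Ino80cKO, while none of the other tested alpha- and beta-tubulins apart from Tubb4b was called lower. Of the 39 members, 32 passed the filter on low counts. Of these 32, 14 were lower (43.8%), 3 were higher (9.38%) and 15 were not called. Among all 15265 genes tested 27.6% were lower and 18.3% higher, so that called genes made up 45.9%. The groups did not overlap for 12 of the 32 members, against 32.0% of all genes. Of the 14 lower members, 12 had their highest value in Ino80WT 3 and 11 their lowest in Ino80cKO 3, the libraries at the ends of the pachytene marker sum. Without these 2 libraries, 11 members were lower and 1, Ttll12, was higher. The 3 higher calls also became 1 without Ino80WT 3 or 5 alone, or without Ino80cKO 1, 3 or 4 alone. With library totals as the scaling, under which all genes had a median log2 fold change of 0.19 in place of 0.02, 10 members were lower and 7 higher.

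**Figure D1:**
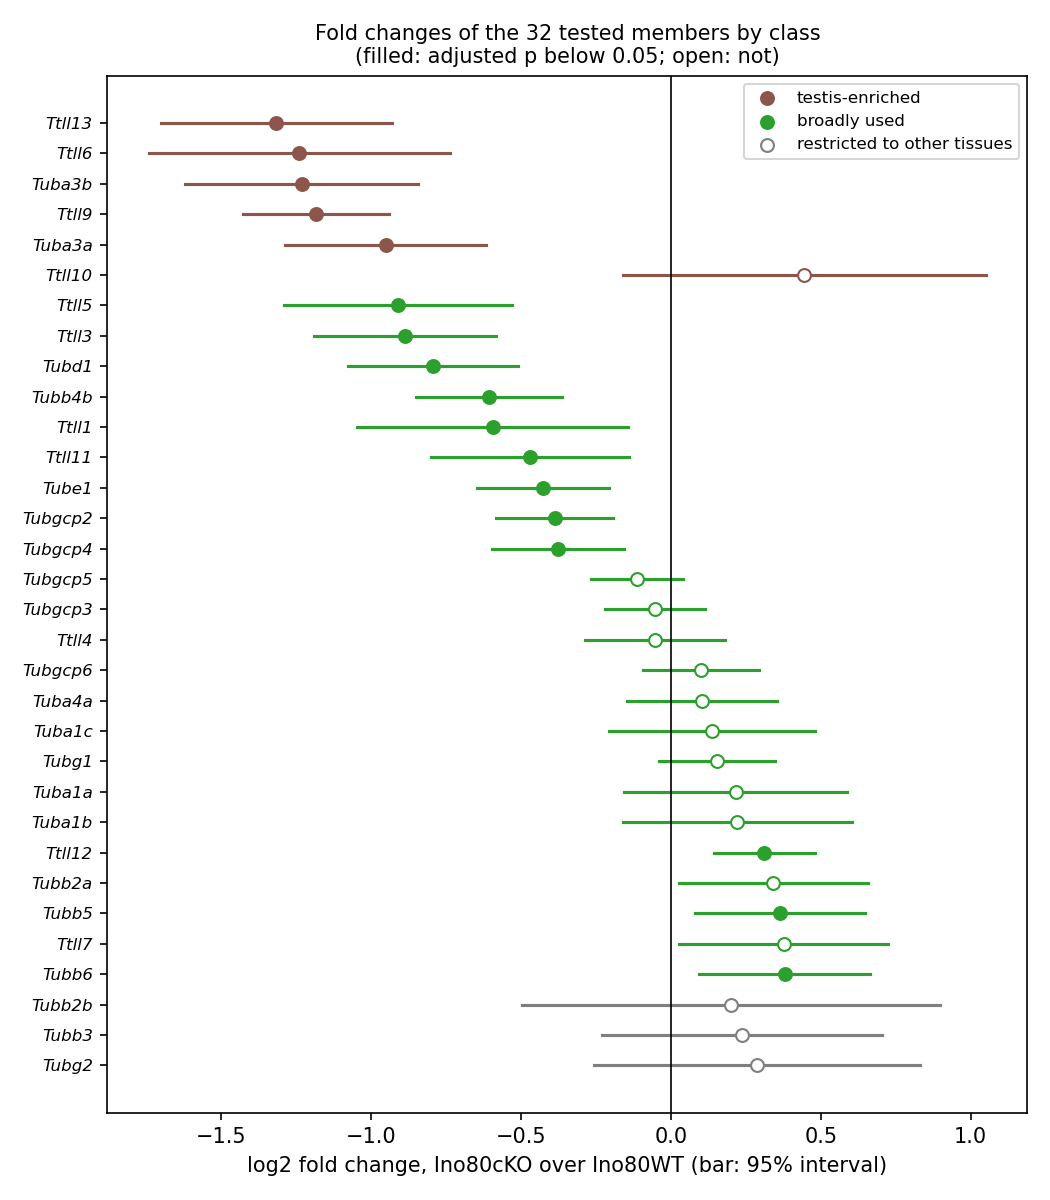
Log2 fold changes (x axis, Ino80cKO over Ino80WT) of the 32 tested members, with bars for the 95% interval. Members are grouped by where each gene is known to be transcribed, in classes set with earlier results of these data known. Testis-enriched members other than Ttll10 lie between -1.32 and -0.95, while broadly used members run from -0.91 to 0.38.

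The contrast of testis-enriched with broadly used members rests on general knowledge of where each gene is transcribed. The classes were set with earlier results of these data known, so their difference is a description and not independent support. Among all genes tested, 27.6% were lower and 18.3% higher. Of 8 testis-enriched members (Tuba3a, Tuba3b, Ttll2, Ttll6, Ttll8, Ttll9, Ttll10 and Ttll13), 6 were tested. Of these 6, 5 were lower (83.3%) and 1, Ttll10, was not called, with a median log2 fold change of -1.21. Of 23 broadly used members, all tested, 9 were lower (39.1%), 3 higher (13%) and 11 not called. Their median log2 fold change was -0.05, against 0.02 for all genes tested. Of 7 members known mainly from other tissues, the 3 tested (Tubb2b, Tubb3 and Tubg2) were not called. With library totals as the scaling, the same 5 testis-enriched members were lower, while the broadly used members split into 5 lower and 7 higher.

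Tuba3a and Tuba3b, alpha-tubulins of the testis, lie on chromosome 6 at positions 125278270 to 125286081 and 145615963 to 145621477 (mm10). Tuba3a had 306, 308, 254, 333 and 413 CPM in Ino80cKO libraries 1 to 5, against 629, 635, 824, 457 and 576 CPM in Ino80WT libraries 1 to 5. Each Ino80cKO library was below each Ino80WT library, a log2 fold change of -0.95 ± 0.15 (1.93-fold lower, adjusted p = 0.000461). Tuba3b had 307, 294, 184, 315 and 398 CPM in Ino80cKO, against 669, 705, 911, 571 and 664 CPM in Ino80WT. Its groups were also apart, with a log2 fold change of -1.23 ± 0.18 (2.35-fold lower, adjusted p = 0.000243). Like the sum of the pachytene markers, both genes peaked in Ino80WT 3 and were at their minimum in Ino80cKO 3.

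The balance between both copies also stood apart. Tuba3b made up 50.1%, 48.8%, 42.0%, 48.6% and 49.1% of the counts of the pair in Ino80cKO libraries 1 to 5, against 51.5%, 52.6%, 52.5%, 55.5% and 53.5% in Ino80WT. The ranges did not overlap, with 50.1% and 51.5% as the nearest values. Ino80WT 3, which had the highest CPM of both genes, was within the range of its group. Ino80cKO 3, which had the lowest CPM of both genes, also had the lowest share, 42.0%, while the other Ino80cKO libraries had 48.6% to 50.1%. The share of Tuba3b in the pair carries no test. Of the 50-base windows of their transcripts, 35.3% for Tuba3a and 29.5% for Tuba3b also occur in transcripts of another gene, mostly in each other, and reads that align to several places may be left out of such counts, so the levels of both are uncertain.

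**Figure D2:**
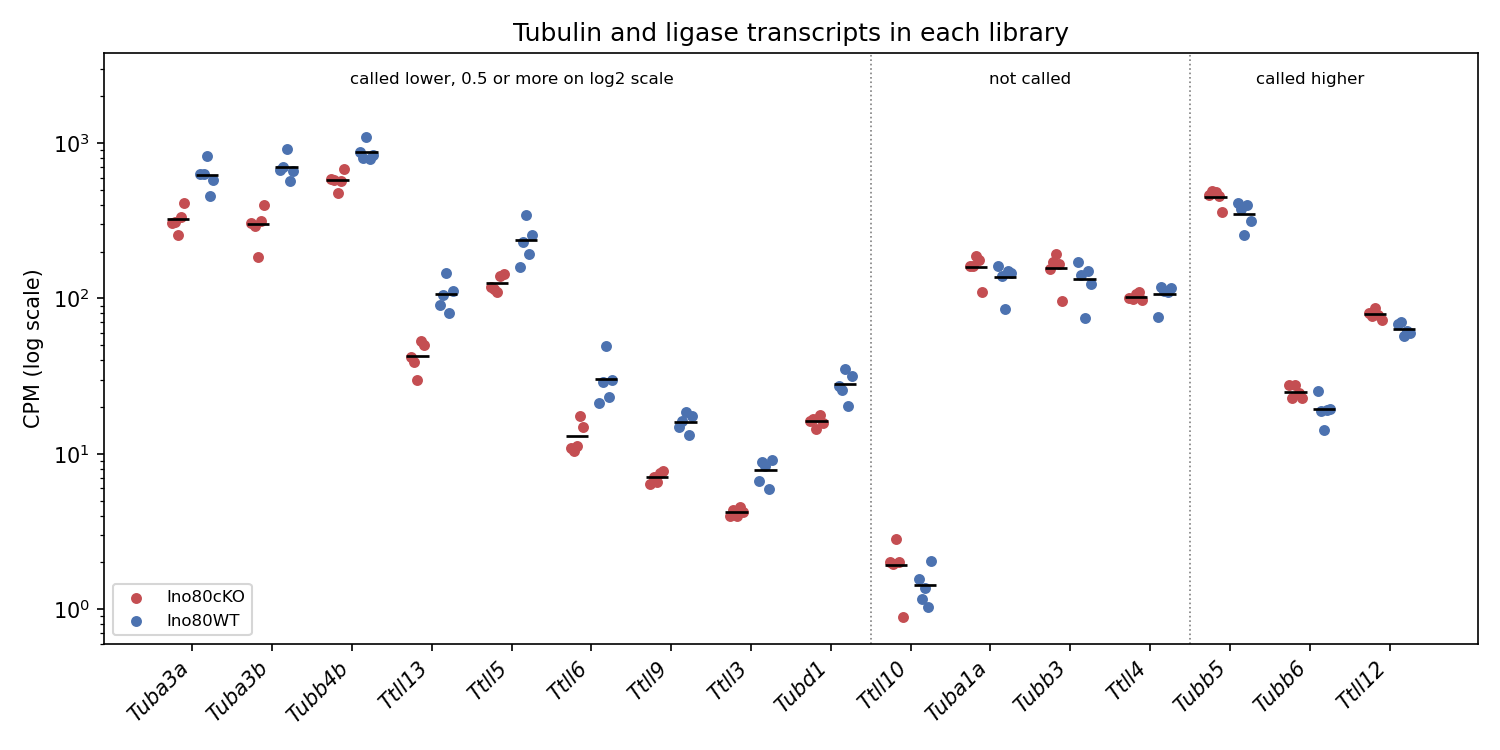
CPM on a log axis for 16 members, 1 point per library (Ino80cKO left, Ino80WT right in each pair) with a line at the mean of 5. For the 9 genes on the left all Ino80cKO points lie below all Ino80WT points, while the groups overlap for the 4 genes that were not called and for Tubb5 and Tubb6.

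Tuba1a, Tuba1b and Tuba1c, alpha-tubulins of dividing and of many other cells, and Tuba4a were not called. Tuba1a had 161, 162, 187, 176 and 110.1 CPM in Ino80cKO and 163, 139.6, 85.6, 151 and 146 CPM in Ino80WT, which overlap (log2 fold change 0.22 ± 0.17, 95% interval -0.16 to 0.59, adjusted p = 0.316). Its lowest library was Ino80WT 3 and its lowest Ino80cKO library was 5. Tuba1b, Tuba1c and Tuba4a had log2 fold changes of 0.22, 0.14 and 0.10. Of the 50-base windows, 75.5% for Tuba1a, 75.1% for Tuba1b and 52.7% for Tuba1c occur in another gene's transcripts, so that their counts can be too low. Exons of Tuba4a overlap Stk16 on the other strand over 37.3% of their length, and with the strand setting of the counting not given, reads of the 2 genes cannot be told apart.

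Within a library, the testis pair gave a smaller part of the alpha-tubulin counts in Ino80cKO. It was 69.2%, 68.7%, 60.2%, 69.8% and 81.0% in Ino80cKO libraries 1 to 5, against 82.5%, 85.4%, 92.4%, 80.5% and 83.9% in Ino80WT, means of 69.8 ± 7.39% and 84.9 ± 4.54%. The difference was -15.2 percentage points, and only Ino80cKO 5 and Ino80WT 4 overlapped. Counts per kb of exon gave a difference of -13.8 points, and counts per kb of windows found in no other gene gave -20.3 points. Tuba1a took 18.4 ± 5.19% of alpha-tubulin counts in Ino80cKO and 9.10 ± 2.74% in Ino80WT.

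Summed over the 8 alpha-tubulin genes, levels were 884 ± 100.3 CPM in Ino80cKO and 1555 ± 217 CPM in Ino80WT, with no overlap. The 9 beta-tubulin rows, the pseudogene row Tubb2a-ps2 included, summed to 1218 ± 43.3 CPM in Ino80cKO and 1389 ± 76.2 CPM in Ino80WT, also without overlap. The sum of alpha-tubulins was thus further apart than that of beta-tubulins, a comparison given as values only.

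**Figure D3:**
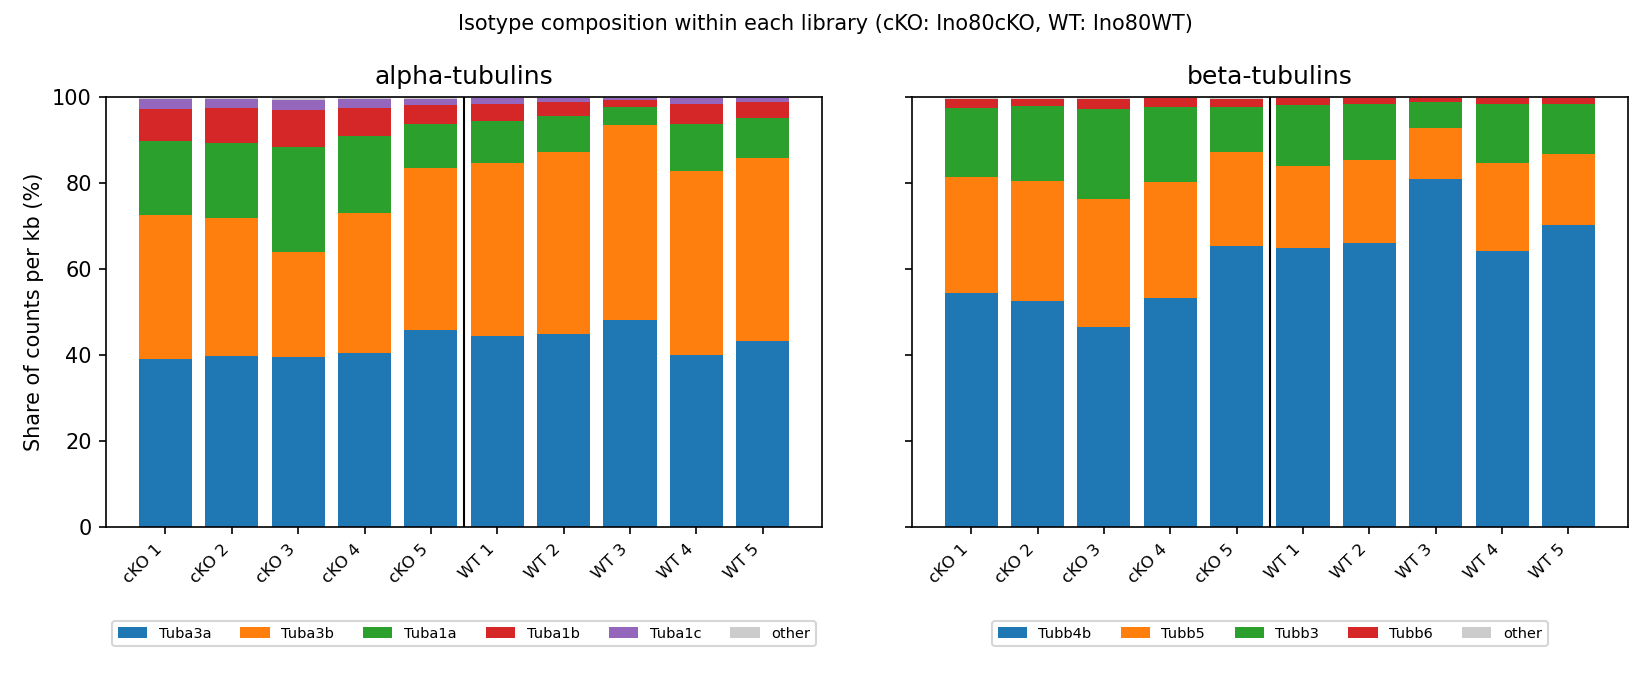
Share of each isotype in the counts per kb of exon of all alpha-tubulin rows (left panel) and all beta-tubulin rows, Tubb2a-ps2 included (right panel). Each library has 1 bar, with the 5 Ino80cKO bars left of the line and the 5 Ino80WT bars right of it. Ino80WT 3 has the largest shares of Tuba3a plus Tuba3b (93.4%) and Tubb4b (80.9%), and Ino80cKO 3 the smallest (64.0% and 46.4%).

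Among beta-tubulins, Tubb4b fell and Tubb5 and Tubb6 were higher. Tubb4b, a widely transcribed isotype that is a main beta-tubulin of cilia and flagella, lies on chromosome 2 at positions 25222158 to 25224702. It had 590.0, 581, 476, 570.3 and 677 CPM in Ino80cKO and 877, 801, 1100.4, 787 and 842 CPM in Ino80WT. All Ino80cKO libraries were below all Ino80WT libraries (log2 fold change -0.61 ± 0.11, 1.52-fold lower, adjusted p = 0.00104). Of its 50-base windows, 41.3% recur in other transcripts, mainly of the pseudogene Tubb4b-ps1, so its level is uncertain.

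Tubb5, the main beta-tubulin of dividing cells, had 463, 494, 488, 459 and 361 CPM in Ino80cKO, against 409.8, 375, 255, 402 and 317 CPM in Ino80WT. The groups overlapped through Ino80cKO 5, and the log2 fold change was 0.37 ± 0.13 (1.29-fold, adjusted p = 0.0372). Tubb6 was higher by 0.38 ± 0.13 on the log2 scale (adjusted p = 0.0323), with 22.8 to 27.9 CPM in Ino80cKO and 14.3 to 25.4 CPM in Ino80WT. Tubb5 and Tubb6 were both lowest in Ino80WT 3. Without that library neither passed (0.27, adjusted p = 0.0599, and 0.29, adjusted p = 0.0579). The call of Tubb5 was also lost without Ino80WT 5 or without any one of Ino80cKO 1 to 4, and that of Tubb6 without any one of Ino80WT 2, 4 and 5 or Ino80cKO 1, 3 and 4 (adjusted p = 0.0505 to 0.0873 over all these). Without both libraries numbered 3 the adjusted p was 0.082 for Tubb5 and 0.0911 for Tubb6.

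Tubb3, a beta-tubulin of neurons that Sertoli cells also transcribe, had 155, 171, 193, 167 and 96.8 CPM in Ino80cKO and 173, 142, 74.5, 151 and 124 CPM in Ino80WT. The groups overlapped (log2 fold change 0.24 ± 0.21, 95% interval -0.23 to 0.70, adjusted p = 0.382). Its highest library, Ino80cKO 3, had the highest Sertoli marker sum and its lowest, Ino80WT 3, the lowest. Ino80cKO 5, with 96.8 CPM, had the lowest Sertoli sum of its group. The part of Sertoli cells in the level of Tubb3 was not tested. Of the 9 tested alpha- and beta-tubulins that were not called lower, 8 were lowest in Ino80WT 3. Tubb2a, of neurons and many other cells, had a log2 fold change of 0.34 (adjusted p = 0.0708) at 3.23 ± 0.409 CPM in Ino80cKO and 2.55 ± 0.271 CPM in Ino80WT, and Tubb2b, its near-copy, was at 0.631 ± 0.154 and 0.546 ± 0.244 CPM.

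**Figure D4:**
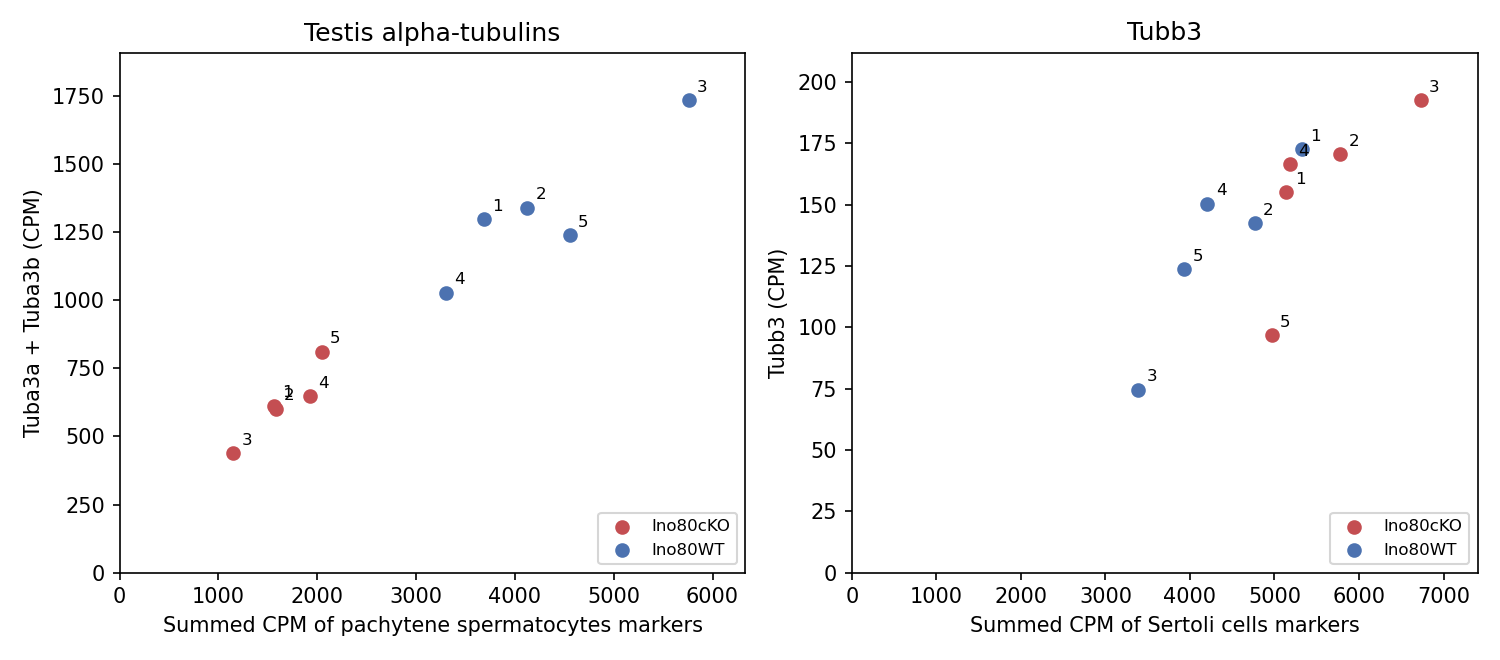
Summed CPM of Tuba3a and Tuba3b against the summed CPM of 12 pachytene markers (left) and CPM of Tubb3 against the summed CPM of 12 Sertoli markers (right), 1 numbered point per library. The pair sums to 438 to 812 CPM in Ino80cKO and 1028 to 1735 CPM in Ino80WT, and Ino80WT 3 and Ino80cKO 3 stand at opposite ends of both panels.

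Per kb of exon, Tubb4b, Tuba3a and Tuba3b led in both groups. In Ino80cKO, Tubb4b was at 277 ± 34.2 CPM per kb, Tuba3a at 214 ± 38.4, Tuba3b at 169 ± 43.1, Tubb5 at 136 ± 16.0, Tuba1a at 88.2 ± 16.3 and Tubb3 at 83.7 ± 19.2. In Ino80WT, Tubb4b was at 422 ± 61.0 CPM per kb, Tuba3a at 414 ± 87.9, Tuba3b at 397 ± 70.8, Tubb5 at 106 ± 19.6, Tuba1a at 76.0 ± 16.6 and Tubb3 at 71.1 ± 19.8. The SD ranges of neighbours in this order overlapped, except those of Tubb5 and Tuba1a in Ino80cKO and those of Tuba3b and Tubb5 in Ino80WT. Windows shared with other genes make the levels of the Tuba genes and of Tubb4b uncertain.

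Of the 9 glutamate ligases, 8 were tested, of which 6 were lower (75%), none higher and 2 not called. Among all genes tested, 27.6% were lower and 18.3% higher. Ttll13, which elongates glutamate chains, lies on chromosome 7 at positions 80246353 to 80260821. It had 41.7, 39.1, 29.8, 53.3 and 50.3 CPM in Ino80cKO, against 90.9, 105, 145, 80.6 and 111 CPM in Ino80WT. Its groups were apart, and its log2 fold change of -1.32 ± 0.18 (2.49-fold lower, adjusted p = 0.000155) was the largest fall among the members tested. Ttll6, another chain-elongating ligase, had 10.8, 10.4, 11.3, 17.5 and 14.8 CPM in Ino80cKO and 21.1, 29.1, 49.5, 23.1 and 29.7 CPM in Ino80WT (log2 fold change -1.24 ± 0.23, 2.36-fold lower, adjusted p = 0.00118). Its highest Ino80WT library was again 3, and the groups did not overlap.

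Ttll9, a ligase that mouse sperm need for normal motility, had 6.42, 7.05, 6.62, 7.47 and 7.71 CPM in Ino80cKO, against 14.8, 16.2, 18.4, 13.3 and 17.5 CPM in Ino80WT. Its libraries varied little within a group, and with a log2 fold change of -1.18 ± 0.11 (2.27-fold lower, adjusted p = 3.91e-05) it had the smallest p among members. Ttll5, a chain-initiating ligase without which male mice are infertile, had 119, 115, 109.8, 139.9 and 145 CPM in Ino80cKO and 159, 231, 343, 192 and 254 CPM in Ino80WT. It had the highest mean of all Ttll genes in both groups, did not overlap, and fell by 0.91 ± 0.17 on the log2 scale (1.88-fold lower, adjusted p = 0.00142). Ttll1, the catalytic subunit of a brain and sperm glutamylase complex, was at 13.7 ± 2.11 CPM in Ino80cKO and 20.6 ± 7.68 CPM in Ino80WT (log2 fold change -0.59 ± 0.21, adjusted p = 0.0339). Ino80WT 3 alone reached 33.8 CPM, and without it the log2 fold change was -0.34 (adjusted p = 0.055). Ttll1 also missed the threshold without Ino80WT 5 or any one of Ino80cKO 1 to 4 (adjusted p = 0.056 to 0.0867), with library totals (0.085) and without both libraries numbered 3 (log2 fold change -0.26, adjusted p = 0.139). Ttll11, a chain-elongating ligase, fell by 0.47 ± 0.15 (adjusted p = 0.0238) at 4.83 ± 0.849 CPM in Ino80cKO and 6.69 ± 1.05 CPM in Ino80WT, and had -0.38 (adjusted p = 0.0595) without Ino80WT 3. Its call was also lost without Ino80cKO 1 or 2 (adjusted p = 0.0505 and 0.0592), with library totals (0.107) and without both libraries numbered 3 (0.0669).

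Ttll4 and Ttll7, ligases that start chains mainly on beta-tubulin, were not called. Ttll4 had 100.4, 98.7, 107, 109.8 and 97.0 CPM in Ino80cKO and 76.2, 119, 111, 109.6 and 116 CPM in Ino80WT. All but Ino80WT 1 lay close together, and the 95% interval of its log2 fold change ran from -0.29 to 0.18 (-0.05 ± 0.11, adjusted p = 0.704). Ttll7 had a log2 fold change of 0.38 ± 0.16 (adjusted p = 0.071) at 5.68 ± 0.857 CPM in Ino80cKO and 4.36 ± 0.836 CPM in Ino80WT. Ttll2, the remaining glutamate ligase, had 3 counts over all Ino80cKO libraries and 1 over all Ino80WT libraries.

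The glycine ligases were at low levels. Ttll3, which starts glycine chains, had 3.99, 4.36, 3.95, 4.57 and 4.20 CPM in Ino80cKO, against 6.67, 8.91, 8.30, 5.96 and 9.18 CPM in Ino80WT. The groups did not overlap (log2 fold change -0.89 ± 0.14, 1.85-fold lower, adjusted p = 0.000361). Exons of Ttll3 overlap those of Arpc4 on the same strand over 5.61% of their length. Ttll10, which extends glycine chains, had 2.0, 1.94, 2.82, 2.01 and 0.890 CPM in Ino80cKO and 1.57, 1.16, 1.37, 1.03 and 2.03 CPM in Ino80WT. Its groups overlapped, with Ino80cKO 5 the lowest of all libraries (log2 fold change 0.45 ± 0.28, adjusted p = 0.205), and without that library the log2 fold change was 0.62 (adjusted p = 0.0401). Ttll8, the other chain-starting glycine ligase, had 28 counts over all Ino80cKO libraries and 46 over all Ino80WT libraries and was not tested.

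Ttll12 was higher, with no overlap between the groups. It had 80.7, 77.3, 87.0, 78.0 and 72.3 CPM in Ino80cKO, against 68.2, 70.7, 57.4, 62.0 and 60.3 CPM in Ino80WT. Its log2 fold change was 0.31 ± 0.08 (1.24-fold, adjusted p = 0.00635), and the call held in all 19 alternative settings. Ino80cKO 3 was its highest library and Ino80WT 3 its lowest.

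Delta- and epsilon-tubulin were lower and gamma-tubulin was not called. Tubd1, which encodes the delta-tubulin of centrioles (chromosome 11, positions 86544991 to 86571608), had 16.2, 16.8, 14.4, 17.7 and 15.8 CPM in Ino80cKO, against 27.5, 25.6, 35.2, 20.4 and 31.6 CPM in Ino80WT. The groups were apart (log2 fold change -0.79 ± 0.13, 1.73-fold lower, adjusted p = 0.00049). Tube1, which encodes epsilon-tubulin, fell by 0.43 ± 0.10 (adjusted p = 0.00499), with 10.4 to 13.4 CPM in Ino80cKO and 14.5 to 18.8 CPM in Ino80WT, and had an adjusted p of 0.0557 from edgeR with library totals. Tubg1, the main gamma-tubulin, was at 30.7 ± 1.62 CPM in Ino80cKO and 27.6 ± 3.20 CPM in Ino80WT (log2 fold change 0.15 ± 0.09, 95% interval -0.04 to 0.35, adjusted p = 0.171). Tubg2, known from brain, was near 1 CPM in both groups.

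Of the 5 gamma-tubulin complex proteins, which form the template for new microtubules, Tubgcp2 and Tubgcp4 were lower and 3 were not called. The lower genes made up 40% of the 5, against 27.6% of all genes tested. Tubgcp2 had 74.8 to 90.1 CPM in Ino80cKO and 90.9 to 127 CPM in Ino80WT, without overlap, and fell by 0.39 ± 0.09 (adjusted p = 0.00437). Tubgcp4 fell by 0.38 ± 0.10 (adjusted p = 0.0099), although 25.4% of its exon length overlaps Trp53bp1 on the other strand, and its adjusted p was 0.0887 with library totals and 0.0592 without both libraries numbered 3. Tubgcp3, Tubgcp5 and Tubgcp6 had log2 fold changes of -0.05, -0.11 and 0.10, with 95% intervals from -0.22 to 0.11, -0.27 to 0.04 and -0.09 to 0.30.

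The 7 members that were not tested (Ttll2, Ttll8, Tuba8, Tubal3, Tubb1, Tubb2a-ps2 and Tubb4a) had at most 14 counts in any library. Tubb4a of brain had 49 counts over all Ino80cKO libraries and 38 over all Ino80WT libraries, Tubal3 had 22 and 17, Tuba8 had 21 and 16, Tubb1 of blood platelets had 11 and 8, and Tubb2a-ps2 had 0 and 1.

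Other genes that act on tubulin were read from 6 lists of 83 genes, of which 80 were found and 77 tested. Together 31 were lower (40.3%) and 7 higher (9.09%), against 27.6% and 18.3% of all genes. Among 13 tested enzymes that modify tubulin tails or its lysine residues, 7 were lower and 2 higher, with a median log2 fold change of -0.61. The glutamate-removing peptidase Agbl2 was at 60.6 ± 14.5 CPM in Ino80cKO and 177 ± 40.1 CPM in Ino80WT (-1.54 ± 0.19, 2.92-fold lower, adjusted p = 0.000108). Its relative Agtpbp1, known as CCP1, fell by 0.84 ± 0.12, and Sirt2, a deacetylase of tubulin and of other proteins, by 0.64 ± 0.08. Hdac6, the main tubulin deacetylase, whose gene is X-linked, was higher by 0.38 ± 0.10 (adjusted p = 0.0075), and Vash1, a tyrosine-removing peptidase, by 0.27 ± 0.10 (adjusted p = 0.0469). The 2 higher calls became 1 without Ino80WT 2, 3 or 5 or without Ino80cKO 1, 2 or 3, and without both libraries numbered 3.

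Among all genes tested, 27.6% were lower and 18.3% higher. Of 4 tested partners of the Ttll1 glutamylase complex, 3 were lower (75%) and Tpgs1 was not called. Lrrc49, Nicn1 and Tpgs2 fell by 0.53 ± 0.11, 0.47 ± 0.15 and 0.29 ± 0.09. With library totals, without Ino80cKO 3, or without both libraries numbered 3, only 1 of them was lower. Without Ino80WT 5 or Ino80cKO 2, and without Ino80WT 1 and 2, 2 were lower. Of 13 tubulin folding cofactors, 8 were lower (61.5%) and none higher, and the list's median was -0.36. Library totals gave 6 lower and 2 higher, and 1 was higher without Ino80WT 1, without Ino80WT 1 and 2, or by DESeq2. Tbca, which binds beta-tubulin, fell by 0.58 ± 0.06 (adjusted p = 6.16e-05), and the prefoldin subunits Pfdn1 and Pfdn5, which hand unfolded tubulin to the chaperonin, by 0.65 ± 0.09 and 0.55 ± 0.08. Of 14 partners of the gamma-tubulin ring and augmin subunits, 5 were lower and none higher, around a median of -0.23. The share of lower genes in that list was 35.7%, against 27.6% of all genes tested. With library totals 3 were higher. The augmin subunits Haus1 and Haus4 fell by 0.99 ± 0.13 and 0.63 ± 0.12, and Mzt2, a small subunit of the ring, by 1.08 ± 0.21.

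Among 10 tested severing enzymes and stathmins, 6 were lower (60%) and 1 higher (10%), and the median was -0.56. Of all genes tested, 27.6% were lower and 18.3% higher. The katanin subunit Katnal2, which mouse spermatids need, was at 17.0 ± 2.74 CPM in Ino80cKO and 42.1 ± 8.37 CPM in Ino80WT (-1.31 ± 0.15, 2.47-fold lower, adjusted p = 6.45e-05). Fignl1 fell by 0.98 ± 0.10 and the severing enzyme spastin, Spast, by 0.52 ± 0.09, while Fignl2 was higher by 0.56 ± 0.17. The count of higher genes was 0 without both libraries numbered 3, and 2 without Ino80WT 4, without Ino80cKO 3, with library totals or with a filter at 1 CPM in 5 libraries. Of 23 proteins that bind microtubule ends or the lattice, 4 were higher (17.4%, near the 18.3% of all genes tested). Only 2 were lower (8.7%, against 27.6% of all genes tested), and the median was 0.17. Clip4, Tacc2 and Clip3 were higher by 0.44 ± 0.10, 0.40 ± 0.09 and 0.45 ± 0.14, and the end-binding protein Mapre3 and the spindle protein Tacc3 fell by 0.64 ± 0.10 and 0.28 ± 0.09. With library totals, 14 of the 23 were higher and 1 lower, and 1 was also lower without Ino80cKO 3, without both libraries numbered 3 or without Ino80WT 1 and 2. DESeq2 called 7 of the 23 higher.

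**Figure D5:**
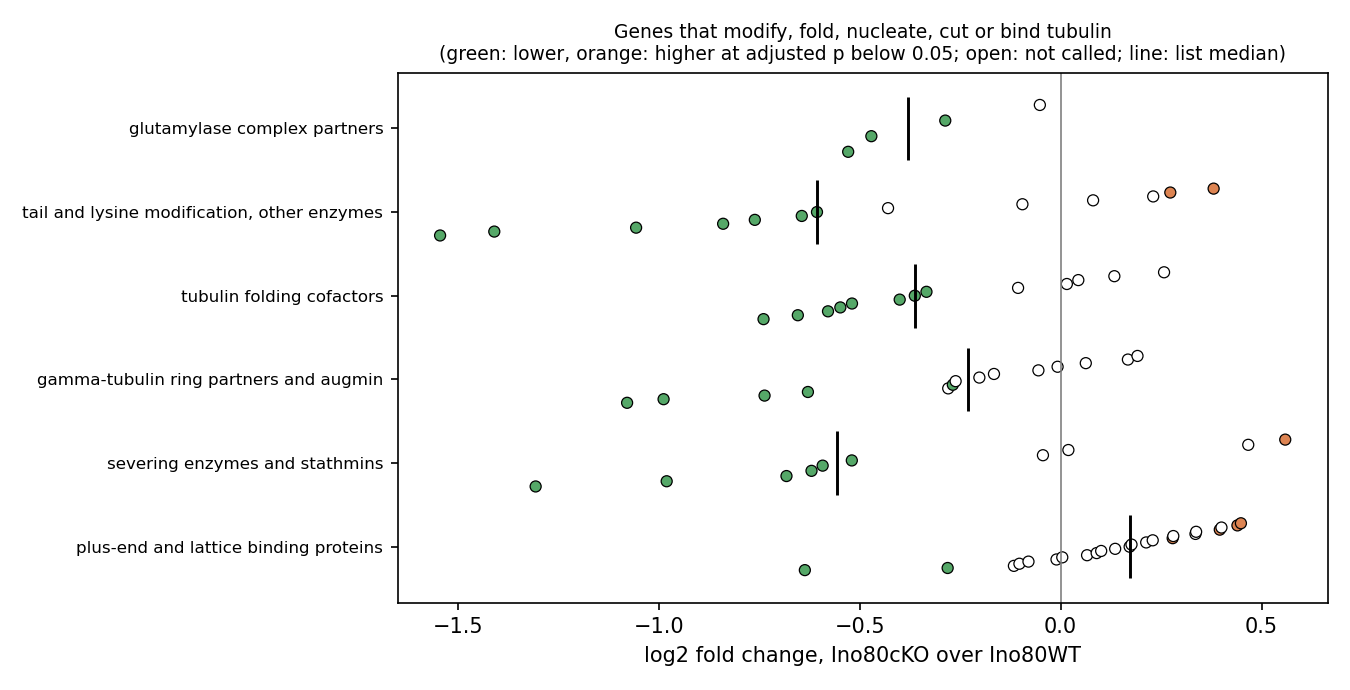
Log2 fold changes (x axis, Ino80cKO over Ino80WT) of 77 genes in 6 lists, 1 point per gene, with a line at each list's median. The medians of 5 lists lie between -0.61 and -0.23, and that of the end- and lattice-binding proteins at 0.17.

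Markers of other cells of the testis were read beside these groups. Of the markers tested, 4 of 7 for Leydig cells (57.1%) and 6 of 10 for macrophages and leukocytes (60%) were higher in Ino80cKO. For peritubular myoid cells 1 of 6 was higher (16.7%), and for spermatogonia 3 of 10 (30%), against 18.3% of all genes tested. No marker of these lists was lower, and none of 6 endothelial and none of 2 erythroid markers was called. For early prophase spermatocytes 6 of 8 were lower (75%, against 27.6% of all genes tested) and none higher. Spermatid markers summed to 12.5 to 19.6 CPM in Ino80cKO and 25.6 to 56.5 CPM in Ino80WT. Of 3 tested, only Actl7b was lower, at a mean of 8.36 CPM in Ino80cKO and 28.9 CPM in Ino80WT. Spaca1 (6.06 and 6.07 CPM) and Tssk1 (1.36 and 2.21 CPM) were not called, so the gap between the sums lay mostly in Actl7b. Prm1, Prm2 and Tnp2 had 0 counts in every library. The summed Leydig markers ran from 64.2 to 132 CPM in Ino80cKO and from 35.8 to 87.6 CPM in Ino80WT, and those of macrophages and leukocytes from 81.7 to 123 CPM in Ino80cKO and from 58.3 to 82.1 CPM in Ino80WT. The part of these cells in the levels of the tubulins and ligases was not tested.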

How the data were processed

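Strand-specific libraries were made from polyA RNA with a Kapa kit, per the labels' protocols. TopHat2, HTSeq and DESeq2 appear, with mm10 as the build, in the submitters' processing notes. The annotation, the strand setting and tool versions are not given in sources used here. The deposited files hold raw counts per gene, 1 file per library. Their 5 rows that name no gene held 35.5% to 44.0% of all entries in a library (alignments that were not unique alone held 18.4% to 26.3% of all entries) and were left out of library sizes and tests.

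Counts were fitted with edgeR 4.0.16 (R 4.3.3) by the quasi-likelihood test with genotype as the single term, TMM scaling and the robust option, after filterByExpr (minimum count 10, minimum total 15). A gene was called at an adjusted p below 0.05 (Benjamini-Hochberg over 15265 genes). CPM used the TMM library sizes. Correlations between libraries of a group were 0.973 to 0.994 and no 2 libraries were alike within sampling noise. Exon lengths, positions and 50-base windows shared between spliced transcripts came from GENCODE M21 (GRCm38), and promoters from RefSeq. The 5 Ino80cKO and 5 Ino80WT libraries entered every comparison. DESeq2 1.42.0, other scalings and filters, a replicate block and left-out libraries were alternatives.

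Members, classes, marker lists and pathway lists were chosen with earlier results of these data known. Values in every library are given for members with an adjusted p below 0.05, no overlap and an absolute log2 fold change of at least 0.5, for tested testis-enriched members, for the alpha- and beta-tubulin with the most counts, and for members with a mean of at least 100 CPM that were not called. Tubb5 and Ttll12 are given in full outside this rule, chosen after their values were seen. From each pathway list at most 3 genes per direction with the smallest adjusted p are named.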

Additional observations from a re-analysis of the deposited data

Results flagged for a closer look

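Of 42 groups of 5 libraries examined over 21 members, 3 held a library whose gap to its nearest neighbour, divided by the range of the group, passed Dixon's 95% critical value, and chance alone would mark about 1 group in 20. For Ttll4, Ino80WT 1 was low at 76.2 CPM while the other Ino80WT libraries had 109.6 to 119 CPM (ratio 0.789). For Tubb4b, Ino80WT 3 was high at 1100.4 CPM while the others had 787 to 877 CPM (ratio 0.713). For Tubb5, Ino80cKO 5 was low at 361 CPM while the others had 459 to 494 CPM (ratio 0.738).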

How the results depend on the processing

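Log2 fold changes were recomputed under 19 alternatives for 21 members, and of these only that of Ttll4, not called, changed sign (0.12 when scaled by library totals). Broadly used members, with a median log2 fold change of -0.05, had a median of 0.12 with library totals and 0.03 without Ino80WT libraries 1 and 2. Pathway lists were recomputed as counts of calls only. Library totals also gave 7 higher and 10 lower members, and 7 higher and 5 lower broadly used members, and moved the share of all calls that were lower to 34.9% from 60.2%. Leaving out 1 library gave 1 to 4 higher members, 1 to 3 higher broadly used members and 12 to 14 lower members. Leaving out both libraries numbered 3 gave 1 higher member, a broadly used one, and 11 lower members. The 5 testis-enriched members were lower under all 19 alternatives, and the median of the 6 tested members of that class ran from -1.27 to -0.95. The difference in the share of alpha-tubulin counts ran from -20.3 to -12.8 percentage points. DESeq2 called 4 members higher, all broadly used, and 14 lower. Deviations of same-numbered libraries from their group means had correlations of -0.47 to 0.20, which cannot show whether the numbers pair the libraries. With a replicate block 3 members were higher and 13 lower, with 1921 genes higher and 3572 lower against 2793 and 4220 without it. The member lost under the block was Ttll1 (log2 fold change -0.54, adjusted p = 0.0668 by edgeR), and there 1 glutamylase partner was lower, 1 tail-modifying enzyme was higher, and 2 end- and lattice-binding proteins were higher and 1 lower. The causes were not tested. Depth limits the 7 untested members, whose mean was at most 0.480 CPM.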
